A study of Rattus norvegicus with 17 samples.

Results

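Livers of rats whose bile duct had been ligated were compared with livers of sham-operated rats across all genes on the array. The 12 arrays compared are those whose labels give either control liver or liver after ligation without ghrelin, out of 17 arrays in the series, with 1 rat per array. The operation at week 7 was an abdominal incision alone in the 6 sham rats and a tie of the bile duct in the 6 ligated rats. All 12 received saline from an osmotic minipump under the skin, and all were killed at week 9, 2 weeks after the operation. The other 5 arrays, from ligated rats given ghrelin at 10 µg per kg per day from the same kind of pump, entered the model for the spread between rats, and their values are quoted beside a few results. Strain, sex and the time of day of killing are not given in the labels used here. Values are log2 of the deposited intensity of a probe set, which are comparable between rats but not between genes. A gene was called higher or lower when the limma test across all kept probe sets gave an adjusted p under 0.05.

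Bile leaves the liver through ducts lined by cholangiocytes, and tying the common duct makes bile acids and pressure rise behind the tie. In the rat the duct epithelium then multiplies into many new ductules, fibroblasts around the portal tracts and stellate cells lay down collagen, leucocytes enter, and hepatocytes lose part of their specialised metabolism. The array measures RNA of the whole liver, so a lower value from fewer cells of a type and one from less RNA per cell cannot be told apart.

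Arrays of each group resembled each other far more than those of the other group. The leading principal component, with 69.1% of the variance, held sham arrays between -88.95 and -78.57 and ligated saline arrays between 37.6 and 80.06, with ligated saline 1 and ligated saline 3 farthest from sham. Median intensity ran from 14.23 to 14.73 in sham and from 16.14 to 17.55 in ligated saline arrays. The 3' minus 5' log2 difference of the control probe sets, which grows when RNA is broken, was 2.09 ± 0.167 (SD, n = 6) in sham and 1.94 ± 0.11 (SD, n = 6) in ligated rats for beta-actin (exact permutation test, two-sided, p = 0.0823). For GAPDH it was 0.1 ± 0.0921 and 0.12 ± 0.0635 (exact permutation test, two-sided, p = 0.747). The label of liver was borne out by its markers, since albumin (Alb) read 15.81 to 15.92 (median 15.89) in sham and 15.80 to 15.88 (median 15.83) in ligated rats, close to the top of the scale and not called.

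Ligation changed the level of most genes measured. Of 9736 genes tested, 3653 were higher (37.5%) and 2649 lower (27.2%), together 64.7%, and in 44.5% of all genes the 6 ligated and 6 sham values did not overlap. Increases were larger than decreases: 653 genes rose by 2 log2 units or more and 113 fell by as much, and 33 rose and 11 fell by 5 or more. The median change of all genes was 0.07. These shares are the background for every list. Lists are counted over the members that passed the filter on low values, which a gene also passes when it is measurable in 1 group alone, so the counts describe the members and support nothing beyond them. The filter asks for 5 of all 17 arrays, and only 6 are sham. It thus admits genes measurable only after ligation more easily than genes measurable only in sham. In 256 called higher genes all sham arrays were below its level, and in 47 called lower genes all ligated saline arrays were. The balance of the calls moved with the scaling: higher genes made up 58.0% of calls as deposited, 46.9% when arrays were quantile normalized and 41.8% when their medians were made equal, which shifted the median change of all genes from 0.07 to -0.05 and -0.12. Over all kept probe sets 61.5% were called.

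**Figure D1:**
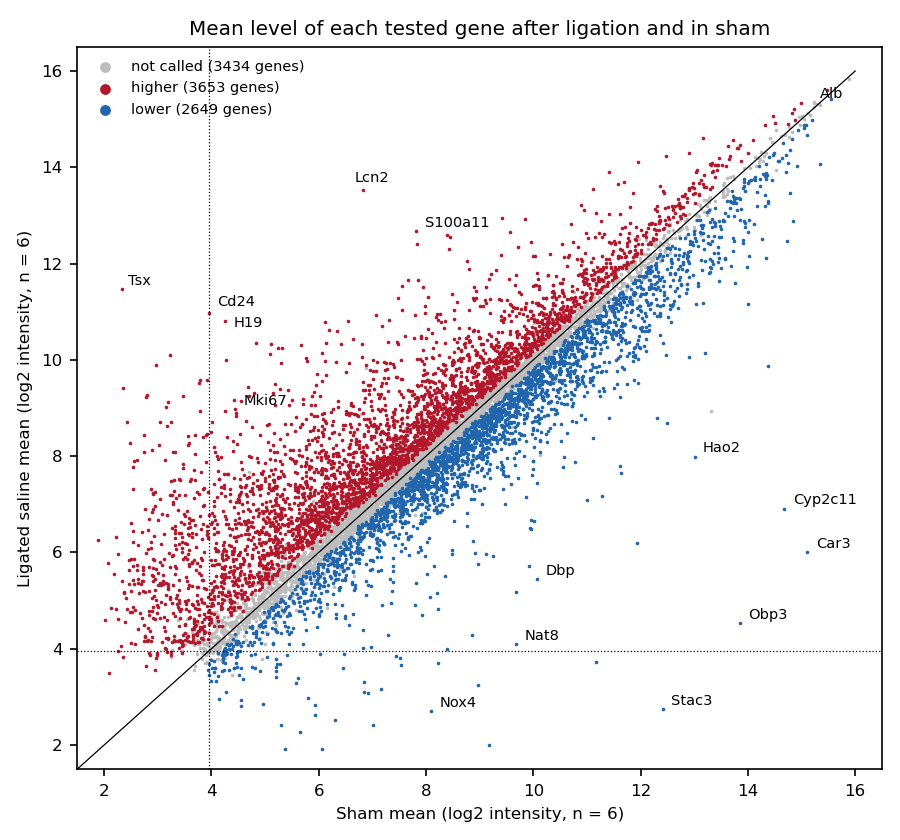
Mean log2 intensity of each of the 9736 tested genes in 6 sham rats (horizontal axis) and 6 ligated saline rats (vertical axis), coloured by call, with the line of equal values and dotted lines at the filter level of 3.95. Points above the line reach farther from it at low sham levels, such as Cd24, H19 and Tsx, and the farthest points below it, such as Stac3, Obp3, Car3 and Cyp2c11, start from high sham levels.

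Among genes whose mean lay above the filter level in both groups, the 15 largest increases ran from 4.67 to 7.01 log2 units. Cd24, a glycosylated surface protein of duct and progenitor cells, read 3.46 to 4.71 (median 3.83) in sham and 9.93 to 11.96 (median 11.01) in ligated rats. The groups were apart by more than 5 log2 units at their nearest, and the change was 7.01 ± 0.329 (log2 change ± SE, adjusted p = 1.08e-10). H19, an imprinted non-coding RNA abundant in fetal liver, read 3.66 to 5.53 (median 3.98) in sham and 9.67 to 12 (median 10.74) in ligated rats and rose by 6.54 ± 0.643 (adjusted p = 2.55e-07). Its 5 ligated ghrelin rats read 9.47 to 13.59 (median 9.67), also clear of sham. Galectin 2 (Lgals2), a sugar-binding protein of gut-type epithelium, read 3.25 to 5.48 (median 3.93) in sham and 9.27 to 11.05 (median 9.92) in ligated rats and rose by 5.72 ± 0.391. The secreted phospholipase Pla1a read 3 to 6.8 (median 5.7) in sham and 10.04 to 10.44 (median 10.29) in ligated rats and rose by 5 ± 0.508. Its sham rats differed among themselves far more than its ligated rats did. Lipoprotein lipase (Lpl), which releases fatty acids from circulating triglyceride and is low in adult hepatocytes, read 5.83 to 6.58 (median 6.03) in sham and 10.14 to 11.64 (median 10.80) in ligated rats and rose by 4.67 ± 0.25. The others of the 15 with the largest increases were Lcn2, Spp1, Tspan8, Krt19, S100a6, S100a11, Efhd1, Mfap4, Fhl2 and Tnfrsf12a, between 4.68 and 6.70. Lcn2, an iron-carrier-binding defence protein, varied most in sham, at 4.26 to 10.22 (median 6.12) against 12.42 to 14.87 (median 13.35) after ligation, still without overlap.

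Some genes rose from a level that was not measurable in sham. In 256 called genes every sham array lay below the filter level, so their fold is a lower bound against that level. The microtubule-associated protein gene Map2 read 2.52 to 2.88 (median 2.81) in sham and 8.07 to 10.36 (median 9.12) in ligated rats, at least 38.6-fold higher. Glutathione peroxidase 2 (Gpx2), a selenium enzyme of epithelia, read 2.11 to 2.89 (median 2.44) and 7.7 to 9.79 (median 8.7), at least 27.1-fold higher. Both sets of sham rats were low and tightly grouped, and neither gene overlapped between groups. The macrophage elastase Mmp12 was at least 36.3-fold higher. Integrin beta 6 (Itgb6), which frees TGF-beta from its latent form, was close to that level in sham, at 3.55 to 4.06 (median 3.76), and read 8.3 to 10.61 (median 9.63) after ligation.

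Among genes that fell, Stac3, known for its part in muscle calcium release, was below the filter level in all 6 ligated rats and at least 352-fold lower. The carbonic anhydrase Car3 changed by -9.11 ± 0.624. Obp3, a small lipid carrier of the urinary protein family, read 13.38 to 14.30 (median 13.85) in sham and 2.98 to 6.03 (median 4.48) in ligated rats. Ligated saline 1 to 3 lay below the filter level and ligated saline 4 to 6 above it, all far below sham, with a change of -9.33 ± 0.556. Obp3 and Mup5 belong to a family of near-identical copies, so the split of signal between them is uncertain. Hao2, a peroxisomal hydroxyacid oxidase, read 12.68 to 13.35 (median 13.02) in sham and 6.09 to 9.18 (median 8.11) after ligation and fell by 5.02 ± 0.41 on the log2 scale. N-acetyltransferase 8 (Nat8), which makes mercapturic acids, read 8.39 to 11.33 (median 9.23) and 3.45 to 4.45 (median 4.22) and fell by 5.59 ± 0.449. The fall of these enzymes left no overlap between groups. Hsd17b2, which inactivates sex steroids, changed by -4.5 ± 0.383, Rdh16, a retinol dehydrogenase, by -4.52 ± 0.358 and the sulfate carrier Slc13a4 by -4.57 ± 0.411.

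NADPH oxidase 4 (Nox4), a source of hydrogen peroxide known mostly from fibroblasts and vessels, ran opposite to the matrix genes. Sham rats read 6.89 to 8.8 (median 8.21) and ligated rats 2.51 to 2.85 (median 2.76), all 6 below the filter level, so it was at least 17.7-fold lower (adjusted p = 4.58e-11). The 5 ligated ghrelin rats read 2.51 to 2.69 (median 2.54), equally low. In 47 called genes every ligated array lay below the filter level. Akr1c3, an aldo-keto reductase of steroids, fell by 5.73 ± 0.556 with 1 ligated array above that level.

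**Figure D2:**
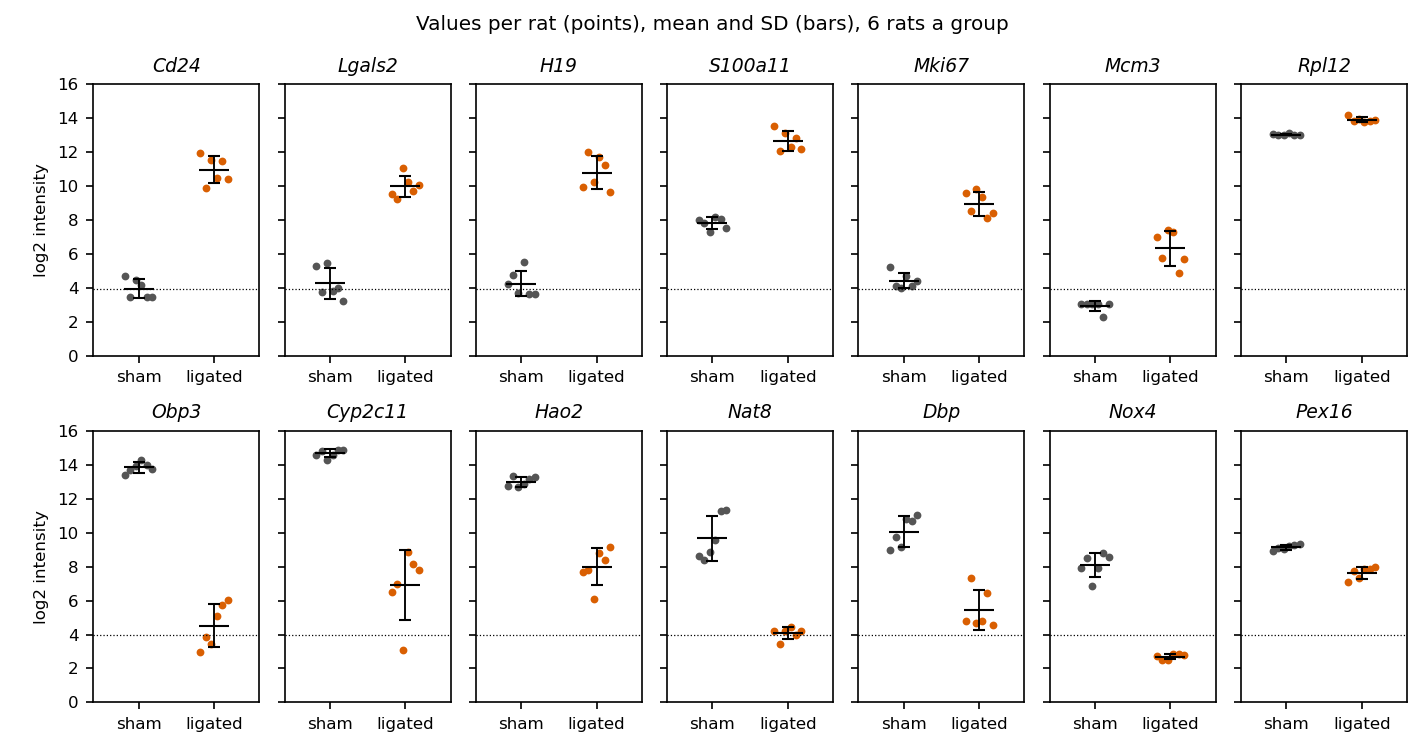
Log2 intensity of 14 genes in each of 6 sham (grey) and 6 ligated saline (orange) rats, with group mean and SD as black bars and the filter level of 3.95 as a dotted line. None of the 14 genes overlaps between groups; Cyp2c11, Obp3 and Dbp spread widely after ligation, Rpl12 hardly at all.

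Markers of bile duct epithelium had the largest median change of the lists with 3 or more measured members. Of 12 cholangiocyte markers on the array 12 passed the filter and 12 rose, with a median of 4.22 log2 units, and 3 of them (Aqp1, Epcam and Spp1) were above the filter level on at least 5 arrays of both groups. Further sets, which share some genes, hold the transcription factors, junctions, secreted defences and channels of this epithelium. Among 14 transcription factors of duct and progenitor cells, 9 rose and 2 fell. Klf5, which keeps gut-type epithelium proliferating, read 2.63 to 3.5 (median 3.04) in sham and 6.02 to 8.17 (median 7.04) after ligation, at least 8.99-fold higher. Sox4, a factor of progenitor cells, rose by 3.8 ± 0.22, and the epithelial ETS factors Ehf and Elf3 were at least 2.24-fold and 1.73-fold higher. The liver and biliary factors Onecut1 and Onecut2 fell by 0.74 ± 0.282 and 0.55 ± 0.134 on the log2 scale, with overlapping groups. Without ligated saline 2 or 6 or sham 2, 3 or 5 the call of Onecut1 was lost (changes of -0.71 to -0.53, adjusted p 0.0545 to 0.0802). Foxj1, Id2 and Zeb1 were not called.

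Of 26 junction and surface proteins, 16 rose and 4 fell. Of 10 claudins tested, which set what passes between epithelial cells, 4 rose and 3 fell. Among the 6 above the filter level on at least 5 arrays of both groups 0 rose and 3 fell. The claudins that rose thus passed the filter mainly through arrays of ligated rats, where they are high. Claudin 4 (Cldn4) read 3.11 to 3.42 (median 3.3) in sham and 6.62 to 8.27 (median 7.43) after ligation, at least 11.8-fold higher. Cldn6, an embryonic claudin, rose by 4.77 ± 0.413 and Cldn7 was at least 8.02-fold higher. Cldn14, Cldn12 and Cldn2 fell by 1.27 ± 0.122, 0.52 ± 0.0834 and 0.52 ± 0.168, and Cldn1 and Cldn3 were not called. Gap junction genes also moved in different directions. Connexin 43 (Gja1), of non-parenchymal cells, rose by 3.08 ± 0.195, and connexin 32 (Gjb1), which couples hepatocytes, read 12.57 to 13.13 (median 12.87) in sham and 11.27 to 11.98 (median 11.54) after ligation and fell by 1.29 ± 0.142. The hyaluronan receptor Cd44, a mark of progenitor and inflammatory cells, rose by 5.77 ± 0.266, prominin 1 (Prom1) by 4.87 ± 0.298 and the tetraspanin Cd9 by 4.65 ± 0.295.

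Of 25 mucin, trefoil factor and epithelial defence genes on the array 12 passed the filter, and of these 10 rose, 1 fell (Pigr, the receptor that carries IgA into bile, by 0.18 ± 0.0666) and Slpi, a leucocyte protease inhibitor, was not called. The call of Pigr was lost without ligated saline 1 or 3 or sham 3 or 4 (changes of -0.17 to -0.14, adjusted p 0.0577 to 0.0711). The membrane protease matriptase (St14) rose by 4.45 ± 0.249. Its inhibitor Spint1 was at least 7.78-fold higher and prostasin (Prss8), which matriptase activates, at least 19.5-fold. Among 18 channels and ion carriers of ducts, 12 rose. Fxyd3, a regulator of the sodium pump, was at least 33.5-fold higher. The chloride cotransporter Slc12a2 rose by 2.91 ± 0.202, the bicarbonate cotransporter Slc4a4 by 2.51 ± 0.124 and the water channel Aqp5 by 2.22 ± 0.364. The hepatocyte aquaporins fell: Aqp11 by 2 ± 0.301, Aqp9, which carries glycerol, by 1.22 ± 0.131 and Aqp8 by 0.38 ± 0.125. The chloride-bicarbonate exchanger Slc4a2 stood at 0.01 and was not called.

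Primary cilia are sensory antennae that cholangiocytes carry and hepatocytes lack. Of 26 cilium genes, 19 rose, 2 fell and 5 were not called, with a median of 0.48 and a lowest change of -0.51. The cilium gene Bbs7 had probe sets called in opposite directions, at -0.51 for the brighter and 1.49 for the other, so its direction is uncertain. Polycystin 2 (Pkd2), a calcium channel of the cilium, read 4.02 to 5.43 (median 4.91) in sham and 7.34 to 8.65 (median 7.95) after ligation and rose by 3.12 ± 0.27. The transport protein Ift81 rose by 1.76 ± 0.163, though the median of its probe sets, 0.27, was not called (adjusted p = 0.0507), and the others that rose did so by less than 1.3 log2 units. When arrays were quantile normalized 11 cilium genes were higher and 5 lower. Keratins mostly rose. Besides Krt19 and Krt7, Krt20 was at least 4.42-fold higher, and Krt8 and Krt18, the pair that hepatocytes also make, rose by 2.33 ± 0.106 and 1.62 ± 0.0808. Periplakin (Ppl), which ties keratins to the membrane, was at least 15.8-fold higher, Krt17 fell by 0.27 ± 0.0728 and plakoglobin (Jup) stood at -0.08, not called.

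Notch signals between touching cells and steers progenitors towards the duct fate. Its ligand Jag1 read 5.03 to 6.48 (median 5.79) in sham and 7.29 to 8.44 (median 7.96) after ligation, with no overlap, and rose by 2.11 ± 0.249. Of 17 Notch pathway genes, 10 rose and 3 fell, or 7 and 5 with quantile normalization and 8 and 4 with medians equal. The target genes Heyl and Hes1 rose by 0.9 ± 0.18 and 0.71 ± 0.189. Hes6, which opposes Hes1, read 11.63 to 11.83 (median 11.67) in sham and 9.23 to 10.15 (median 9.96) after ligation and fell by 1.88 ± 0.193. Numb, which restrains the receptor, fell by 0.76 ± 0.0944. The ligand Dll4 was not called.

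In the Wnt pathway, which holds the pericentral program of hepatocytes, 10 of 25 genes rose and 8 fell, against 37.5% and 27.2% of all genes, and the balance turned to 7 higher and 10 lower with quantile normalization. The ligand Wnt4 rose by 3.43 ± 0.28 and the secreted antagonist Sfrp1, at 2.13 to 3.25 (median 2.38) in sham and 4.91 to 7.53 (median 6.53) after ligation, was at least 5.63-fold higher. Dkk3 rose by 2.96 ± 0.312 and the receptor Fzd6 by 2.04 ± 0.194. Lgr4, the R-spondin receptor, fell by 1.12 ± 0.205, Fzd8 by 1.12 ± 0.138, and the nuclear effector Tcf7l2 by 0.8 ± 0.129. The target Axin2, often used as a readout of the pathway, was at 0.18 and was not called.

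YAP and TAZ carry signals of stretch and cell contact. Of 22 genes of the pathway and its targets, 14 rose and 1 fell (Nt5e, by 0.78 ± 0.114). The target Ccn2 (connective tissue growth factor) read 6.35 to 8.48 (median 7.67) in sham and 10.32 to 12.36 (median 11.30) after ligation and rose by 3.81 ± 0.418. Ankrd1, another target, rose by 3.37 ± 0.392 and Ajuba, which restrains the LATS kinases, by 2.19 ± 0.177. Ccn1, also a target, was not called (0.9 ± 0.554, adjusted p = 0.168). Of the TEAD factors, the DNA-binding partners, Tead2 rose by 0.87 ± 0.161 and Tead1 was not called.

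Growth factor genes moved both ways. In the list of FGF, EGF and HGF family ligands and receptors 12 of 27 genes rose (44.4%) and 8 fell (29.6%). These shares were near those of all genes, 37.5% and 27.2%. The counts became 11 and 10 with quantile normalization and 11 and 11 with medians equal. PDGF, which drives fibroblasts and stellate cells, was raised in ligands and receptors: Pdgfrb rose by 3.19 ± 0.327, Pdgfa by 2.47 ± 0.251 and Pdgfra by 2.06 ± 0.188, and Pdgfd was at least 3.03-fold higher. The EGF system of hepatocytes was lower. Egf read 9.56 to 9.92 (median 9.68) in sham and 7.1 to 7.9 (median 7.58) after ligation and fell by 2.17 ± 0.12, and its receptor Egfr read 11.83 to 12.43 (median 12.07) and 9.94 to 11.35 (median 10.81) and fell by 1.41 ± 0.2. Both fell without overlap. Hepatocyte growth factor (Hgf) rose by 1.42 ± 0.208, its receptor Met was not called (-0.22), and Fgf1 rose by 2.53 ± 0.305 with the receptors Fgfr3 (2.68 ± 0.26) and Fgfr1 (2.24 ± 0.215), whereas Fgfr4, the hepatocyte receptor of FGF19-type signals, fell by 0.65 ± 0.109. Vegfa stood at -0.18 and was not called.

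In the growth hormone and IGF axis, the receptor Ghr read 13.36 to 13.62 (median 13.49) in sham and 11.55 to 12.23 (median 12) after ligation and fell by 1.57 ± 0.148. Igfals, which holds IGF in the circulation, fell by 1.79 ± 0.139 and Igf1 by 0.43 ± 0.0922. The binding proteins Igfbp2, Igfbp1 and Igfbp7 rose by 3.74 ± 0.416, 2.49 ± 0.327 and 2.43 ± 0.163, and the receptor Igf1r by 1.26 ± 0.243. The insulin receptor substrates moved apart, with Irs1 at least 2.38-fold lower and Irs2 higher by 1.15 ± 0.213. Socs2 and Cish, targets of growth hormone, were at -0.95 ± 0.529 and -0.84 ± 0.641 and were not called.

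Of 12 oncofetal and imprinted genes 7 rose and 2 fell, or 6 and 5 with quantile normalization. H19, Tspan8, Mest (2.39 ± 0.323), Gpc3 (2.03 ± 0.282) and Grb10 (1.94 ± 0.307) were higher. Alpha-fetoprotein (Afp), the fetal albumin relative, went down, reading 8.14 to 8.92 (median 8.6) in sham and 6.86 to 7.54 (median 7.29) after ligation, a fall of 1.3 ± 0.17. Igf2bp3, an RNA-binding protein of fetal tissue, read 9.72 to 10.18 (median 10.0) in sham and 7.12 to 7.98 (median 7.65) after ligation and fell by 2.38 ± 0.153. Neither overlapped. The imprinting factor Zfp57 was not called.

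Most of the machinery that matures collagen rose with collagen itself. Of 20 collagen chains 19 rose and Col13a1 was not called. Among 22 genes of folding and cross-linking, 18 rose and 0 fell, among them, besides Loxl1, the lysyl hydroxylase Plod2 (at least 20-fold higher), the chaperones Fkbp10 (at least 3.77-fold higher) and Serpinh1 (3.14 ± 0.217) and lysyl oxidase Lox (3.25 ± 0.466). The general folding protein P4hb, the collagen prolyl hydroxylases P3h1 and P4ha2 and the procollagen protease Bmp1 were not called. Proteoglycans rose in 18 of 25 cases, among them asporin (Aspn, 2.97 ± 0.342), osteoglycin (Ogn, 2.57 ± 0.37), the glypican Gpc6 (2.63 ± 0.266) and agrin (Agrn, 2.54 ± 0.246). Ndst1, which sulfates heparan sulfate, fell by 1.25 ± 0.259 and Sdc2, a hepatocyte syndecan, by 0.95 ± 0.0961. Of 9 matrix metalloproteinases 6 rose and Mmp19 fell (-1.75 ± 0.18), or 5 and 3 with quantile normalization, and Mmp2 rose by 3.95 ± 0.241. Mmp23, counted as rising, had probe sets at -0.74 and 2.79.

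Adhesion and cytoskeleton genes mostly rose. Of 32 integrin and focal adhesion genes 23 rose and 2 fell. Itga8, an integrin of myofibroblasts, rose by 3.81 ± 0.312 and Itga6, a laminin receptor of epithelium, by 2.54 ± 0.265, whereas Itga7 was at least 1.94-fold lower and the fibronectin receptor Itga5 was not called. Of 45 actin and tubulin cytoskeleton genes 38 rose and 1 fell. Non-muscle myosin Myh10 rose by 4.31 ± 0.299, transgelin (Tagln) by 4.26 ± 0.434, the microvillus linker ezrin (Ezr) by 3.55 ± 0.293 and tubulin Tubb6 by 3.41 ± 0.272. Tuba4a was the member that fell (-0.64 ± 0.177), with overlapping groups.

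S100 proteins and annexins are small calcium-binding proteins of the cell cortex. Of 23 on the array 18 passed the filter and 18 rose, with a median of 2.47 against 0.07 for all tested genes. S100a11 read 7.28 to 8.17 (median 7.92) in sham and 12.08 to 13.56 (median 12.56) after ligation. S100a6 rose by 4.92 ± 0.355, Anxa5 by 4.12 ± 0.197, Anxa1 by 3.99 ± 0.358 and Anxa2 by 3.98 ± 0.219. Anxa6 (0.61 ± 0.112) and S100b (1.46 ± 0.456) also rose, with overlapping groups. After quantile normalization 18 and with medians equal 18 were called higher.

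Guidance molecules, known from axons and used by vessels and epithelia too, rose in 17 of 31 cases (54.8%) and fell in 4 (12.9%). Of all genes 37.5% rose and 27.2% fell. The counts became 13 and 10 with quantile normalization and 13 and 7 with medians equal. Among the 21 members above the filter level on at least 5 arrays of both groups 9 rose and 3 fell, with a median of 0.19. Sema5a rose by 3.87 ± 0.292 and the slit receptor Robo2 by 3.69 ± 0.281, and the netrin receptor Unc5b was at least 7.12-fold higher. The ephrin ligand Efna5 fell by 1.28 ± 0.19 and Plxna2, a semaphorin receptor, by 1.22 ± 0.216.

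**Figure D3:**
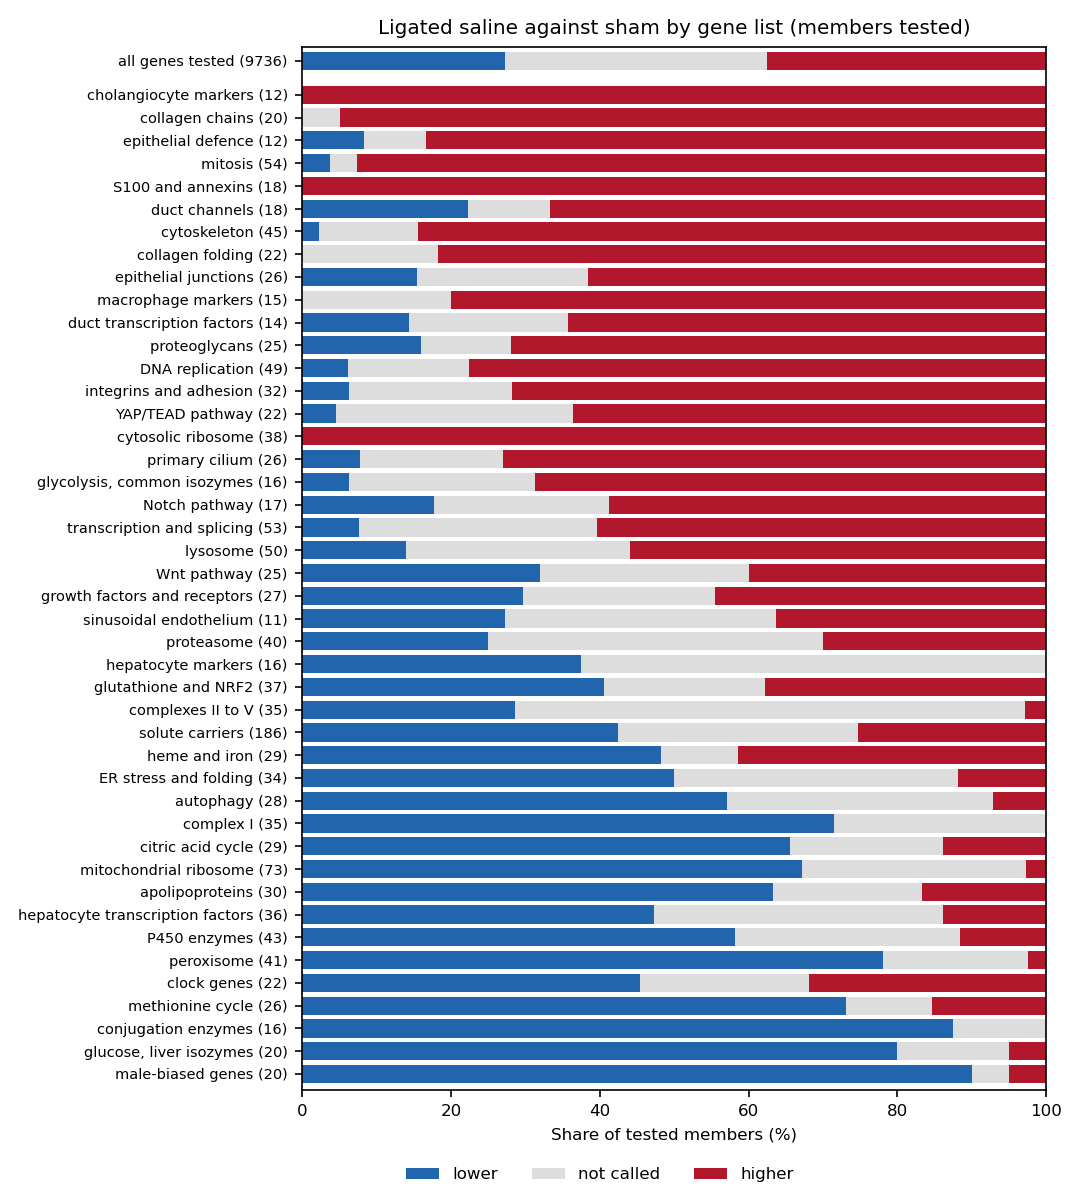
Share of tested members that were lower, not called or higher in ligated saline against sham rats for 44 gene lists, ordered by their median change, with the number of tested members in parentheses and all 9736 tested genes at the top. Duct, matrix, mitosis and cytosolic ribosome lists hold a larger share of higher genes than all genes do, and peroxisome, conjugation, liver glucose and male-biased lists a larger share of lower ones.

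Markers of other cell types give the setting for these shifts. Of 15 macrophage markers 12 rose and 0 fell, with a median of 1.15, and Kupffer cell Clec4f rose by 0.63 ± 0.131 while the chemokine receptor Cx3cr1 was not called. The lectin Clec7a, a receptor for fungal glucans on macrophages, rose by 4.57 ± 0.23 and Clec12a by 3.82 ± 0.377. Of 9 neutrophil markers on the array 5 passed the filter and 5 rose, with S100a8 and S100a9 counted also among the S100 genes. Sinusoidal endothelium, the fenestrated lining of the lobule, had 4 of 11 markers higher and 3 lower (2 and 3 with medians equal). These shares, 36.4% and 27.3%, were near those of all genes, 37.5% and 27.2%. The median of its markers was 0.17, and Stab1 and Lyve1 were not called. Endothelium of larger vessels had 9 of 14 higher, with von Willebrand factor (Vwf) up by 1.31 ± 0.306. Of 20 T and NK cell markers on the array 7 passed the filter, and 3 rose, 2 fell and 2 were not called, with a median of 0.45. Here too the shares, 42.9% and 28.6%, were near those of all genes. Lck, a kinase of the T cell receptor, the interleukin 7 receptor Il7r and Cd4 rose by 1.34 ± 0.364, 1.25 ± 0.392 and 1.1 ± 0.29 (with quantile normalization Il7r was not called, at 0.93, adjusted p = 0.0586), whereas granzyme A (Gzma) and perforin (Prf1), the killing proteins of NK and T cells, fell by 2.14 ± 0.559 and 1.4 ± 0.449, with overlapping groups, and Cd3e was not called. Of 4 B and plasma cell markers that passed, 3 rose and 0 fell, with a median of 0.62.

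Some markers were near or below the filter level on the 12 arrays. Of 18 exocrine pancreas genes on the array 2 were kept (Cela1 and Cpb1), and 0 were higher, while trypsinogens (Prss1, Prss2) and pancreatic lipase (Pnlip) were below the filter. Of 11 skeletal muscle genes 1 was kept, Myh1, which fell by 0.6 ± 0.106, with the other members below the filter. Fabp4, a fatty acid binding protein of adipocytes, capillaries and macrophages, read 3.33 to 6.04 (median 5.03) in sham and 8.4 to 9.81 (median 9.34) after ligation and rose by 4.55 ± 0.377, while the adipocyte-defining genes Adipoq, Lep and Plin1 were below the filter level in both groups. Of 8 mesothelial markers on the array 5 passed, and 3 of these rose (mesothelin Msln, Podxl and Krt19, also a duct marker) and 0 fell, with a median of 2.11. Lrrn4 and Gpm6a were not called (Gpm6a was higher without sham 1 or 5, by 2.62 and 2.71, adjusted p 0.0419 and 0.0302), and Wt1 and Bnc1 did not pass the filter. Of 3 erythroid markers that passed, Alas2 and Hbb fell by 2.99 ± 0.461 and 1.17 ± 0.204 and Ahsp was not called, though it was lower under both other scalings.

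Cell division genes rose in both DNA copying and mitosis. Of 60 mitosis genes on the array 54 passed the filter, and of these 50 rose, 2 fell and 2 were not called, with a median of 2.62. Of 54 replication and chromatin assembly genes 49 passed, and 38 rose, 3 fell and 8 were not called, with a median of 1.07. Mki67, the standard proliferation antigen, read 4 to 5.23 (median 4.3) in sham and 8.11 to 9.81 (median 8.95) after ligation and rose by 4.54 ± 0.304. Racgap1, which positions the cleavage furrow, was at least 14.2-fold higher, and Ect2, its partner, rose by 4.37 ± 0.354. The kinase Cdk1 rose by 3.93 ± 0.347. The exceptions in mitosis were Cks1b and Incenp, which fell by 0.72 ± 0.139 and 0.29 ± 0.0932, and Cenpm and Cdc25b, which were not called.

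In replication the helicase subunits led. Mcm3 read 2.31 to 3.07 (median 3.06) in sham and 4.89 to 7.45 (median 6.38) after ligation, at least 5.29-fold higher, and Mcm6 and Mcm2 rose by 2.97 ± 0.327 and 2.45 ± 0.305. Loading factor Cdt1 was at least 2.75-fold higher and its inhibitor geminin (Gmnn) rose by 2.3 ± 0.248. Ung, which removes uracil from DNA, fell by 1.42 ± 0.124, the remodeller Hells by 1.06 ± 0.183 and Rpa3 by 0.41 ± 0.106, and Mcm10 and Rfc5 were not called. Per rat, the list mean of replication genes above the sham mean was lowest in ligated saline 5, at 0.25, and highest in ligated saline 3, at 1.66. Ligated saline 5 was lowest for mitosis too, at 1.43 against 3.31 in ligated saline 3, although its cholangiocyte mean, 4.64, was among the higher ones.

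The promoters of these lists differed in sequence. Windows of 300 bases, from 250 before to 50 after the RefSeq start on the rat assembly GRCr8, were searched on both strands, and 7668 of 9736 tested genes had a single window. TTTGAA, the cell cycle homology region (CHR) bound by the DREAM complex that silences mitotic genes in resting cells, was in 71.7% of 46 mitosis windows, 13.3% of 45 replication windows, 11.7% of tested genes and 18.1% of all 24206 single windows. CCAAT, the NF-Y box, was in 76.1%, 64.4%, 38.4% and 37.8% of the same sets. TTTCCCGC or TTTGGCGC, forms of the E2F site, were in 0.0%, 35.6%, 3.04% and 1.56%. Neighbouring matches of different motifs can share a base. These are descriptions of letters, not of binding.

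The windows of the mitosis genes with the largest rise that hold both motifs, Mki67 (chr1:199952544-199952843, minus strand) and Ect2 (chr2:111966577-111966876, minus strand), are shown with each TTTGAA and CCAAT, on either strand, in capitals. The start is the base after the first 250.
Mki67: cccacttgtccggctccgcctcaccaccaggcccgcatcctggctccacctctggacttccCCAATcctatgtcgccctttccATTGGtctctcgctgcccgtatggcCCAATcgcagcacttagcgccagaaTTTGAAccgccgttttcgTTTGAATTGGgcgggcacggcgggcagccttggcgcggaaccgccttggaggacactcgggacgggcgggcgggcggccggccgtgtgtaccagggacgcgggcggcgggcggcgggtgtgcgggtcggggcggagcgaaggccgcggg
Ect2: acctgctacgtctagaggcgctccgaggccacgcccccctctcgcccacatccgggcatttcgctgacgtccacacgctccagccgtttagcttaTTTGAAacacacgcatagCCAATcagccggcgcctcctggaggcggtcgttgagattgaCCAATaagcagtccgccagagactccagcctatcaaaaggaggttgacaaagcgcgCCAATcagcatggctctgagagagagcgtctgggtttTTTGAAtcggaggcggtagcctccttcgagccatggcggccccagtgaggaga
The windows of the replication genes with the largest rise that hold an E2F form, Mcm3 (chr9:30733697-30733996, minus strand) and Mcm6 (chr13:42404303-42404602, minus strand), are shown with that form in capitals, on the reverse strand in Mcm3.
Mcm3: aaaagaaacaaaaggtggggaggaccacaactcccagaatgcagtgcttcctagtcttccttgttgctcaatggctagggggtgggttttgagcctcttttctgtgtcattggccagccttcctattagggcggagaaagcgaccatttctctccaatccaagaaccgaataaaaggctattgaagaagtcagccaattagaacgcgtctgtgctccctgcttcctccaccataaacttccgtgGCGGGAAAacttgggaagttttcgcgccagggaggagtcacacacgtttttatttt
Mcm6: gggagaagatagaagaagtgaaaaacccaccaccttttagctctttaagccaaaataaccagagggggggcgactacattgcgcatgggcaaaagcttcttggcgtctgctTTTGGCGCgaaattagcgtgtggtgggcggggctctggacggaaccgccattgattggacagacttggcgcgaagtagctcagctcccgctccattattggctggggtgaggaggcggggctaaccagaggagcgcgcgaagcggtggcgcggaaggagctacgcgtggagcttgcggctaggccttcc
In Mki67 the matches cluster between 189 and 94 bases before the start, and in Mcm3 the E2F form begins 6 bases before it.

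**Figure D4:**
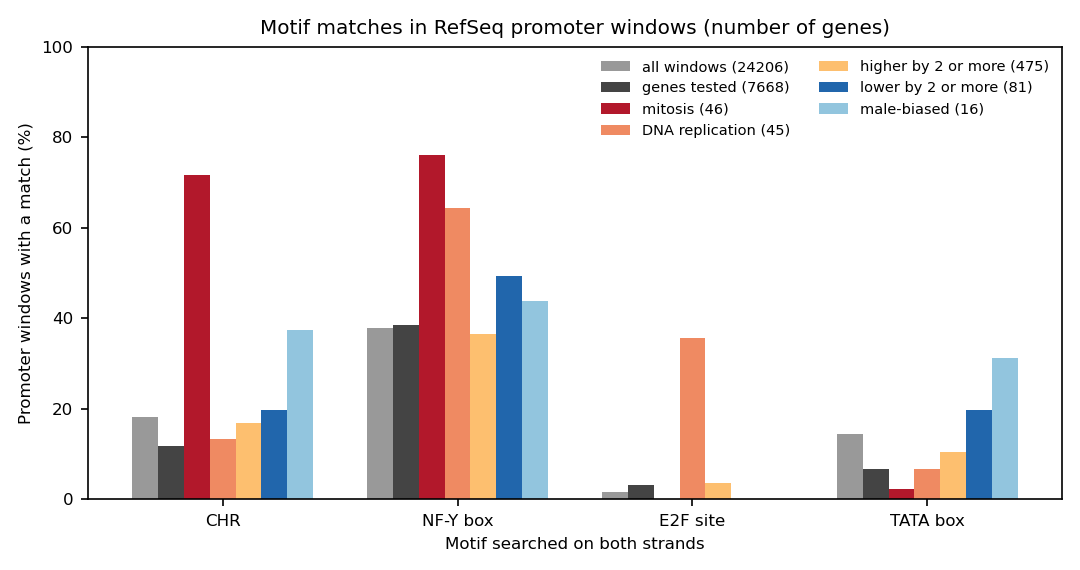
Share of RefSeq promoter windows with at least 1 match to the CHR, NF-Y box, E2F site or TATA box on either strand, in all single windows, tested genes, the mitosis and replication lists, genes higher or lower by 2 log2 units or more, and male-biased genes, with the number of windows in the key. CHR stands out in mitosis (71.7%) and E2F in replication (35.6%). TATAAA anywhere in the window, labelled TATA box, is in 19.8% of genes that fell most and 31.2% of male-biased genes. The CHR shares of these 2 sets (19.8% and 37.5%) also exceed that of tested genes (11.7%).

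Genes with the largest falls had fewer CpG and more often TATAAA in these windows than tested genes as a whole. In the 81 windows of genes lower by 2 or more, the median ratio of observed to expected CpG was 0.34, against 0.67 in the 475 windows of genes higher by as much and 0.78 in all tested genes. TATAAA was in 19.8%, 10.5% and 6.7% of the same sets, and in 14.3% of all single windows. Median GC content of these sets was 54.3%, 61.0% and 61.0%, and TTTGAA was in 19.8%, 16.8% and 11.7%. The larger share in the genes that fell is thus not particular to TATAAA. P450 windows, whatever their change, had a median CpG ratio of 0.17 and TATAAA in 26.5%. The windows of the genes with the largest falls that hold TATAAA, Obp3 (chr5:79640626-79640925, minus strand) and Cyp2c11 (chr1:246174966-246175265, plus strand), are shown with it in capitals.
Obp3: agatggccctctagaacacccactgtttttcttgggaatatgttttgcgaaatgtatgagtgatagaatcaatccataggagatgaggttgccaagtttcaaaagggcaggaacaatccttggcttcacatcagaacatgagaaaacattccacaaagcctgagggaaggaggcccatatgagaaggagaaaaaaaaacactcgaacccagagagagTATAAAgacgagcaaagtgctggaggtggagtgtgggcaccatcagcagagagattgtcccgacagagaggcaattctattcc
Cyp2c11: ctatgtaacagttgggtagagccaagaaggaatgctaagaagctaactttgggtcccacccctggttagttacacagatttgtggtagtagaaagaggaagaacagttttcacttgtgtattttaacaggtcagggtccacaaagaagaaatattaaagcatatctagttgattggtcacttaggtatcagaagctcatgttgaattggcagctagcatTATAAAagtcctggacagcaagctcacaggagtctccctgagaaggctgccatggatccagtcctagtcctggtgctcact
The capitals begin 33 bases before the start in Obp3 and 31 before it in Cyp2c11, and the Cyp2c11 window holds 0 CpG against 36 in that of Mki67.

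Brakes of the cell cycle rose beside its engines. Cdkn1a (p21), the inhibitor induced by p53, read 3.72 to 4.85 (median 4.16) in sham and 6.84 to 8.58 (median 7.3) after ligation and rose by 3.18 ± 0.279. Cyclin D1 (Ccnd1), which starts the cycle, read 8.67 to 10.10 (median 9.41) and 11.59 to 12.79 (median 12.20) and rose by 2.8 ± 0.292. Both rose in all 6 rats without overlap. Of 26 p53 targets and brakes 13 rose and 3 fell (12 and 6 with medians equal), but other p53 targets, Mdm2 (0.03), Sesn1 (-0.03) and Btg1, were not called. Rbl1 and the INK4 inhibitors Cdkn2c and Cdkn2d rose by 2.12 ± 0.273, 1.63 ± 0.239 and 1.4 ± 0.205.

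Ribosomes of the cytosol and of mitochondria went opposite ways. Of 42 cytosolic ribosomal protein genes on the array 38 passed the filter, and 38 of these rose without overlap between groups, by 0.3 to 0.88 log2 units with a median of 0.59. Rpl12 read 12.99 to 13.13 (median 13.03) in sham and 13.81 to 14.21 (median 13.89) after ligation and Rps29, the smallest change, 14.67 to 14.93 (median 14.86) and 15.09 to 15.19 (median 15.11). The shift was small and steady: 38 of the 38 were called higher when arrays were quantile normalized and 37 when their medians were made equal. Many of these genes have near-identical pseudogene copies. Of 73 mitochondrial ribosomal protein genes 49 fell and 2 rose (Mrps6 and Mrpl17), with a median of -0.33. The call of Mrpl17 was lost without ligated saline 1, 3, 4 or 6 or sham 3 or 4 (changes of 0.16 to 0.18, adjusted p 0.0596 to 0.0751). Mrpl15 fell most, from 11.22 to 11.74 (median 11.44) in sham to 10.31 to 10.66 (median 10.57) after ligation, by 0.92 ± 0.0976. Per rat the mean of the mitochondrial list lay between -0.45 and -0.15, and that of the cytosolic list between 0.48 and 0.72.

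**Figure D5:**
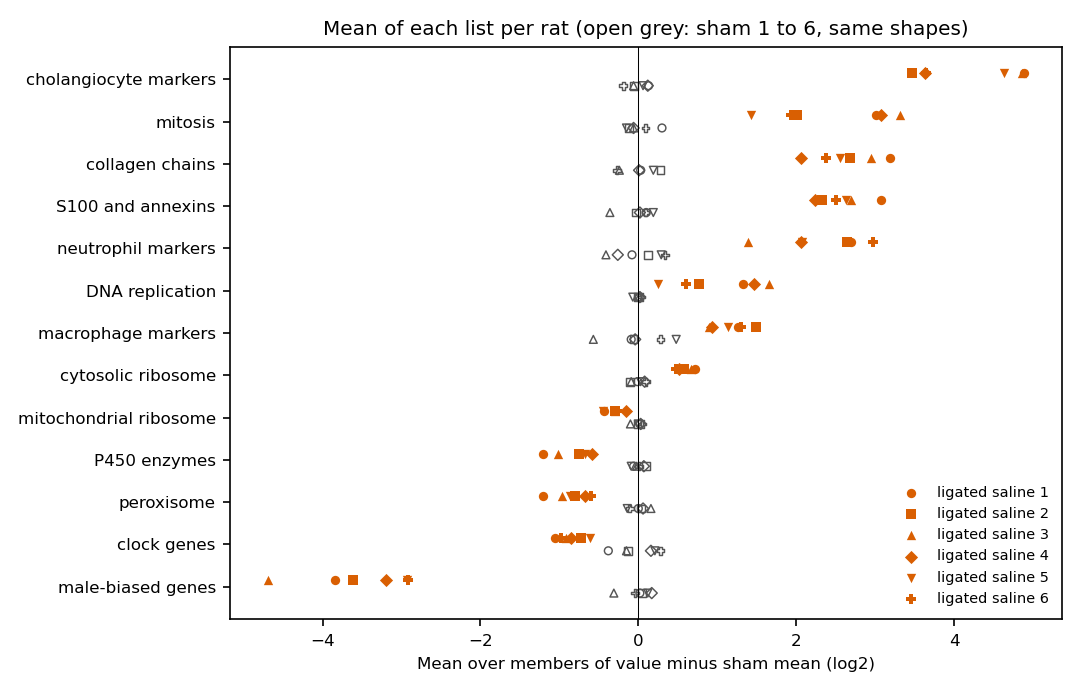
Mean over the members of 13 gene lists of each rat's log2 value minus the sham mean, for 6 sham (open grey) and 6 ligated saline rats (filled orange), with a shape for each rat number. The 6 ligated saline rats lie outside the sham range in all 13 lists, and ligated saline 5 is lowest among them for mitosis and DNA replication.

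RNA and protein handling changed by smaller amounts. Transcription and splicing genes were higher in 32 of 53 cases as deposited, in 31 after quantile normalization and in 20 with medians equal. Hnrnpa1, which packages pre-mRNA, rose by 1.54 ± 0.16, and the basal factor Gtf2f2 fell by 1.05 ± 0.1. The proteasome was mixed, with 12 of 40 genes higher (30.0%) and 10 lower (25.0%), near the shares of all genes (37.5% and 27.2%). Its balance depended on scaling, with 16 higher and 7 lower after quantile normalization and 5 and 18 with medians equal. Its interferon-inducible subunits led the rise, Psmb9 by 1.14 ± 0.148 and Psmb10 by 0.61 ± 0.135, and the assembly chaperones Psmd9 and Psmd5 fell by 0.84 ± 0.0972 and 0.78 ± 0.097. Lysosome genes rose in 28 of 50 cases, led by Gpnmb (2.63 ± 0.35), a glycoprotein of macrophages, cathepsin E (2.52 ± 0.312 for Ctse) and cathepsin K (1.99 ± 0.218 for Ctsk), while the membrane proton pump subunit Atp6v0a1 fell by 0.64 ± 0.163.

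Autophagy and protein folding genes of the endoplasmic reticulum fell more often than they rose. Of 28 autophagy genes 16 fell and 2 rose. The lipid kinase Pik3c3, which starts the autophagosome, fell by 1.6 ± 0.138, and Map1lc3a rose by 1.43 ± 0.135. Of 34 stress and folding genes 17 fell and 4 rose (20 and 1 with medians equal). Herpud1 and Sel1l, which clear misfolded proteins, fell by 1.41 ± 0.174 and 1.32 ± 0.12, and Ddit3 (CHOP), a death factor of this response, by 0.64 ± 0.166. The chaperone Hspa5 and the regulators Atf4, Atf6 and Xbp1 were not called.

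Complex I, where NADH gives its electrons to the respiratory chain, lost expression in most of its genes. Of 35 complex I genes 25 fell and 0 rose, with a median of -0.32 (18 lower and 2 higher after quantile normalization), led by Ndufv3 (-0.97 ± 0.145) and Ndufs3 (-0.77 ± 0.0916). Of 35 genes of complexes II to V 10 fell and 1 rose (Cox7a2l, 0.67 ± 0.0637), with a median of -0.11, and 7 were lower after quantile normalization and 30 with medians equal. The difference between these lists was not tested. Citric acid cycle and pyruvate genes fell in 19 of 29 cases. Idh2, the mitochondrial NADP isocitrate dehydrogenase, went up instead, from 10.07 to 10.54 (median 10.38) in sham to 11.01 to 11.81 (median 11.45) after ligation, by 1.08 ± 0.139. The kinases that switch off pyruvate dehydrogenase went opposite ways. Pdk1 and Pdk2 fell by 2.11 ± 0.154 and 1.29 ± 0.167, Pdk3 was at least 3.46-fold higher, and Pdk4 was not called (-0.01). The ADP carrier Slc25a4 of the inner membrane rose by 3.09 ± 0.247.

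Glucose enzymes changed by isozyme. The forms typical of adult liver fell in 16 of 20 cases and rose in 1 (Pck2), while those of most tissues rose in 11 of 16 and fell in 1 (Ldha, by 0.61 ± 0.0862). The call of Pck2 was lost without ligated saline 1, 3 or 6 or sham 1, 2, 3 or 5 (changes of 0.33 to 0.4, adjusted p 0.055 to 0.0923). Pyruvate kinase of liver (Pklr) read 11.35 to 11.69 (median 11.66) in sham and 8.72 to 10.74 (median 9.39) after ligation and fell by 2.06 ± 0.261. Hexokinase 1 (Hk1) read 3.35 to 3.71 (median 3.36) and 5.45 to 6.89 (median 6.1), at least 4.4-fold higher. Platelet phosphofructokinase (Pfkp) rose by 2.37 ± 0.189, aldolase A (Aldoa) by 1.68 ± 0.142 and the glucose carrier Slc2a1 by 1.45 ± 0.2. The gluconeogenic enzyme Pck1 and the liver glucose carrier Slc2a2 were not called (-0.06 and -0.2). Of 23 hypoxia genes 12 rose and 3 fell, or 7 and 7 with medians equal, with Ndrg1 higher by 2.65 ± 0.272 and Bnip3, Adm, Ankrd37 and Vegfa not called.

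Peroxisomes split very long fatty acids and shorten the side chain of bile acids. Of 41 peroxisome genes 32 fell and 1 rose (Crat), with a median of -0.72. Amacr, which flips bile acid intermediates to the form that can be shortened, read 13.04 to 14.10 (median 13.85) in sham and 10.97 to 12.37 (median 11.62) after ligation and fell by 2.16 ± 0.225, Acox2, the oxidase of that step, by 1.44 ± 0.281, and the assembly factors Pex16 and Pex10 by 1.5 ± 0.146 and 1.49 ± 0.128. Lipoprotein genes fell in 19 of 30 cases, among them the sterol exporter Abcg5 (at least 2.66-fold lower) and the apolipoproteins Apoa4 (-2.85 ± 0.295), Apon (-2.28 ± 0.221) and Apoc2 (-1.75 ± 0.247). Apoe and Apoa1, at very high levels on these arrays, were not called. Apoe was called lower under 5 alternatives, with changes of -0.52 to -0.09, and Apoa1 with medians equal (-0.32). Vldlr was at least 3.88-fold higher.

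Conjugation and methyl transfer genes were mostly lower. Of 16 conjugation enzymes 14 fell and 0 rose, led by Inmt and Nat8, with glycine acyltransferase (Glyat) lower by a log2 change of -2.14 ± 0.222. Of 26 methionine cycle genes 19 fell and 4 rose. Chdh, Cbs and Bhmt, which take choline and homocysteine onwards, changed by -1.77 ± 0.194, -1.48 ± 0.316 and -1.46 ± 0.279. Mat2b, a subunit of methionine adenosyltransferase, rose by 0.4 ± 0.0626. Glutathione transferases and sulfotransferases went both ways. Sult1c2 and Gstm7 changed by -4.4 ± 0.516 and -3.41 ± 0.386, and Gstp1, the form of ducts and early tumours, rose by 1.45 ± 0.233. Gclc and Gclm, whose products make glutathione, fell by 1.54 ± 0.167 and 1.37 ± 0.165, while Gpx3, Gpx7 and Ggt1 rose by 3.86 ± 0.331, 2.73 ± 0.209 and 4.24 ± 0.383.

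Heme synthesis enzymes fell. Of 29 heme and iron genes 12 rose (41.4%) and 14 fell (48.3%), against 37.5% and 27.2% of all genes. Alas1, its first and limiting enzyme in hepatocytes, read 11.80 to 13.69 (median 13.01) in sham and 10.55 to 11.78 (median 11.63) after ligation and fell by 1.44 ± 0.293. Alad, Uros, Urod, Cpox, Ppox and Fech fell, with changes of -1.28 ± 0.0924, -0.68 ± 0.135, -0.49 ± 0.0676, -0.26 ± 0.0756, -1.3 ± 0.148 and -1.04 ± 0.088. Heme oxygenase 1 (Hmox1), which breaks heme down, rose by 1.4 ± 0.244 and Hmox2 fell by 0.95 ± 0.0984. Iron import genes Slc11a2 and Tfrc rose by 1.5 ± 0.172 and 1.1 ± 0.179, and hepcidin (Hamp), the iron hormone, overlapped between groups at 12.32 to 13.61 (median 13.14) and 10.76 to 13.38 (median 12.78) and was not called.

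Transcription factors of hepatocytes and nuclear receptors fell more often than they rose. Of 36 such genes 17 fell, 5 rose and 14 were not called (20 lower and 2 higher with medians equal). The median was -0.4, and changes ran from -3.22 to 1.74. Cebpa read 11.44 to 12.18 (median 12) in sham and 9.65 to 11.38 (median 10.23) after ligation and fell by 1.61 ± 0.243, Rxra by 1.5 ± 0.288, the bile acid receptor Nr1h4 (FXR) by 1.16 ± 0.149 and Hnf4a by 0.79 ± 0.097. Gata6 and Cebpd rose by 1.74 ± 0.189 and 1.71 ± 0.231. Prox1 and Nr5a2 were not called. Of 16 hepatocyte markers 6 fell (12 with medians equal) and 0 rose, the asialoglycoprotein receptors Asgr2 and Asgr1 by 1.09 ± 0.132 and 0.54 ± 0.0868, while fibrinogen chains and albumin were not called. Of 21 pericentral genes 10 fell and 3 rose, and of 26 periportal genes 19 fell and 1 rose. Pericentral Oat and Cyp1a2 changed by -1.65 ± 0.288 and -1.46 ± 0.368, and periportal Gls2 and Uroc1 by -1.63 ± 0.309 and -1.62 ± 0.224. The pericentral genes Glul and Cyp2e1 and the periportal genes Cps1 and Ass1 were not called.

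Genes of male-biased liver expression, which growth hormone pulses set in the rat, were mostly lower. Of 20 male-biased genes 18 fell and 1 rose (Cabin1), with a median of -1.91. Cyp2c11, the male-specific P450, read 14.29 to 14.91 (median 14.71) in sham and 3.09 to 8.89 (median 7.4) after ligation and fell by 7.77 ± 0.845. Cyp2c12, the female-specific P450, read 6.07 to 9.89 (median 7.88) in sham and 11.42 to 13.47 (median 12.30) after ligation and rose by 4.58 ± 0.528. Of 15 female-biased genes 5 rose, 4 fell and 6 were not called, with a median of 0.03 and changes from -5.02 to 4.87. The shares that rose and fell, 33.3% and 26.7%, were near those of all genes, 37.5% and 27.2%. Besides Cyp2c12, the export pump Abcc3 and Prom1 were among those that rose, by 4.54 ± 0.186 and 4.87 ± 0.298. Fmo1 and Slc22a7 were among those that fell, by 1.98 ± 0.45 and 1.26 ± 0.15, less than the largest fall of the list. In the P450 family as a whole 25 of 43 genes fell and 5 rose. Cyp4f5, a hydroxylase of leukotrienes and fatty acids, rose by 3.88 ± 0.18 and its relatives Cyp4f4 and Cyp4f1 fell by 1.7 ± 0.149 and 1.19 ± 0.106. Leukotriene C4 synthase (Ltc4s) was at least 4.34-fold lower and Lta4h, on the B4 branch, rose by 1.42 ± 0.0932.

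Of 22 clock genes 7 rose (31.8%) and 10 fell (45.5%), against 37.5% and 27.2% of all genes. With medians equal 3 rose and 10 fell. Bmal1 and Npas2, the activating arm, read 3.03 to 7.04 (median 4.27) and 3.64 to 7.61 (median 6.33) in sham and 7.24 to 8.02 (median 7.33) and 7.62 to 8.75 (median 8.06) after ligation, and rose by 2.66 ± 0.626 and 2.37 ± 0.566. The output and repressor genes Dbp, Nr1d1, Hlf, Per3, Per2 and Tef fell, with changes of -4.62 ± 0.566, -3.22 ± 0.492, -2.94 ± 0.289, -2.93 ± 0.27, -2.43 ± 0.368 and -2.4 ± 0.26. Per1 and Cry1 were not called. The time of day at which each rat was killed was not analysed here, and its part in these changes was not tested.

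Complement genes moved both ways, in shares near those of all genes (37.5% higher and 27.2% lower). Of 26 complement genes 8 rose (30.8%) and 7 fell (26.9%), a balance that turned to 5 and 11 with medians equal. The receptor C5ar1 was higher by 1.9 ± 0.191, C6 was lower by a log2 change of -1.53 ± 0.338 and C3 was not called (0.11). Endothelin 1 (Edn1), which contracts stellate cells, was at least 3.26-fold higher and the endothelial nitric oxide synthase Nos3 rose by 1.07 ± 0.199, while angiotensinogen (Agt) and its receptor Agtr1a fell by 1.14 ± 0.141 and 0.81 ± 0.106. Of 186 solute carriers 47 rose and 79 fell. The fructose carrier Slc2a5 and the citrate and succinate carrier Slc13a2 were at least 5.14-fold and 3.96-fold lower, and the folate carrier Slc46a1 changed by -3.38 ± 0.192. The ATP-magnesium carrier Slc25a24 rose by 3.24 ± 0.192 and the magnesium carrier Slc41a3 was at least 3.03-fold higher.

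The spread between rats was similar in both groups over all genes. Among 8741 genes above the filter level on all 12 arrays, 50.3% had the larger SD in ligated rats, and the median SD was 0.187 in sham and 0.187 in ligated rats. Genes that fell varied more after ligation (58.9% with the larger SD there, median 0.172 in sham and 0.195 in ligated rats), and genes that were not called varied less (43.5%). The SD was not adjusted for level, which by definition is lower after ligation in genes that fell. The largest ratios of SD belonged to genes whose sham values were almost identical, such as Gstm3, a glutathione transferase, with a sham SD of 0.00921 and ligated rats from 4.59 to 9.83, and Cx3cl1, a membrane chemokine, with a sham SD of 0.00839 and ligated rats from 5.72 to 7.78. Near-identical sham values (SD under 0.03) occurred in 90 genes, of which 25 were called higher. Values this close together can be a floor left by background correction, and a fold change from them is then a lower bound.

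Probe sets of 1 gene did not always share a call. Of 2376 genes with several kept probe sets, all probe sets had the same call in 945, and in 49 at least 1 was higher and 1 lower. Gas6, a ligand of the receptor Axl, had the widest gap, with probe sets at -1.86 and 4.29 around the brightest at 0.73, so no direction is given for it. For Rpl7 a dim probe set was at -0.65 and the bright one at 0.54. A further 3122 kept probe sets carry no single gene symbol and are not named here, 1020 of them higher and 789 lower.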

How the data were processed

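Liver RNA of 17 rats had been measured on the Affymetrix whole-genome rat array, 1 rat per array. The deposited values were intensity values per probe set on a linear scale that the authors made with GCRMA, per the submitters' processing notes, with version and settings not given in the sources used here. GCRMA as usually run corrects background by probe sequence and equalises arrays probe by probe, which can leave dim probe sets at a floor and remove part of a shift shared by most genes. The deposited intensity values were converted to log2 with no pseudocount, and 0 columns of samples were left unused. Of 31099 probe sets 57 controls were left out. A probe set was kept when above the median of all deposited values (15.5, or 3.95 as log2) on at least 5 arrays, which kept 15965 of 31042.

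The model was limma 3.58.1 run under R 4.3.3 (lmFit and eBayes, 3 groups, no covariate), and p-values were adjusted by Benjamini-Hochberg over the kept probe sets, with calls at 0.05. The labels say that each array is 1 rat and no more of how replicates arose. Genes are named from the platform annotation where a probe set has 1 symbol, and the kept probe set with the highest mean stands for the gene. No array pair was identical. The number of arrays limits precision. A fold is "at least" when 1 group had no array above 3.95, and is then taken against that level. In simulated data for ligated saline minus sham on 15965 probe sets, 67, 67 and 66 were changed by 0.5, 1 and 2 log2 units. The fit called 47.8%, 80.6% and 98.5% of these, with 8 false calls of 159. In the real data 61.5% of kept probe sets were called, so these rates need not hold there.

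Named genes follow a written rule: the 15 largest changes each way among called, non-overlapping genes measured in both groups, the 10 largest whatever the level, per list the 5 largest each way with exceptions and members not called, per family the 3 largest each way, the 10 largest ratios of SD, and check genes. The text gives a selection of these, and some further list members chosen after their values were seen. The lists, members and rule were chosen with earlier results of these data known. Promoter windows were taken from RefSeq for GRCr8. Alternatives covered scaling, filter, offset, samples in the fit, variance model, choice of probe set and each array left out.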

Additional observations from a re-analysis of the deposited data

Results flagged for a closer look

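In 45 of 718 groups of 6 arrays, 1 for each named gene and group, 1 array stood apart, its gap to the nearest other array, as a share of the group's range, exceeding Dixon's 95% critical value. Chance flags about 1 in 20 groups, and the flags were spread over all 12 arrays. All values are log2 intensity.

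Sham 1 stood apart for Gpc3 at 4.77, Ift81 at 6.30 and Msln at 4.71 on the high side, and for Alb at 15.81, Asgr1 at 12.69, Gstp1 at 8.43 and Mmp12 at 2.53 on the low side. Sham 2 stood apart for Anxa5 at 8.73 on the high side, and for Fmo1 at 10.70 and Podxl at 4.73 on the low side. Sham 3 stood apart for Lrrn4 at 7.21 on the high side, and for Adm at 5.41, Anxa1 at 6.00, Ndufs3 at 10.98 and Pdgfa at 3.55 on the low side. Sham 4 stood apart for Atp6v0a1 at 6.61, Krt7 at 4.78 and Mmp23 at 4.59 on the high side, and for Map2 at 2.52 and Rbl1 at 4.59 on the low side. Sham 5 stood apart for Ahsp at 5.06 and Incenp at 4.71 on the high side, and for Amacr at 13.04 and Mcm3 at 2.31 on the low side. Sham 6 stood apart for Pdk1 at 10.26 and Pdk3 at 3.27 on the high side, and for Tagln at 4.38 on the low side.

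Ligated saline 1 stood apart for Cx3cr1 at 5.78 on the high side, and for Ass1 at 13.31, Cyp1a2 at 10.51, Cyp4f4 at 9.42 and Gls2 at 8.62 on the low side. Ligated saline 2 stood apart for Irs1 at 2.95 on the low side. Ligated saline 3 stood apart for Cabin1 at 8.57 on the high side, and for Dll4 at 3.92 on the low side. Ligated saline 4 stood apart for Alad at 11.31 and Bmal1 at 8.02 on the high side, and for S100a6 at 9.35 on the low side. Ligated saline 5 stood apart for Apoa4 at 12.49 on the high side, and for Hamp at 10.76, Lta4h at 11.31 and P4hb at 12.98 on the low side. Ligated saline 6 stood apart for Rdh16 at 6.42 and Stac3 at 2.94 on the high side, and for Slc4a4 at 11.55 on the low side. The whole range of the group was under 0.2 log2 units in 4 of these 45 cases.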

How the results depend on the processing

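No paired analysis was possible because no number in the titles occurs in more than 1 group. With each of the 12 arrays left out in turn, the number of higher probe sets ranged from 5166 to 5427 and of lower ones from 4049 to 4309, and of higher genes from 3474 to 3630 and of lower genes from 2482 to 2620. Counts moved by more than 1.5 times with the filter alone. With no filter 16195 probe sets and 6103 genes were lower, where 13749 probe sets were below the filter level on all 17 arrays with a median change of -0.08 and 92.5% negative. With the stricter filter 3030 probe sets were higher and 2830 lower, and 2197 genes were higher, from fewer probe sets tested. The share of higher calls among probe sets, 55.7%, became 42.0% after quantile normalization and 39.0% with array medians equal. Of 297 named called genes 289 kept direction and call under every alternative that gave them a value (20 to 22 of 22). The change of Rpl7, 0.54, became -0.05 with the median of its probe sets, since its dim probe sets fell. Under 1 or both scalings the calls of Mrpl17, Rps29, Pck2, Il7r and Pigr were lost, the last also with 12 arrays in the fit. Of 62 named genes not called, 19 were called under at least 1 alternative. Ahsp, Col13a1, Dll4, Itga5 and Zfp57 were lower under both other scalings. Alb, Apoa1, Apoe, Cps1, Glul, Jup, Slc2a2 and Vegfa were lower with medians equal. GCRMA floors limit what can be said of dim genes.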
